A study of Rattus norvegicus with 12 samples.

Results

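Collagen chain genes were followed in RNA sequencing of rat kidney after cardiopulmonary bypass (CPB), in which a heart-lung machine takes over circulation and gas exchange. The members were every protein-coding gene of the deposited annotation whose symbol has the form of a collagen alpha chain (Col, a type number, a, a chain number), which took 44 of the 20455 genes with reads, each of them a true collagen chain. The 12 libraries formed 3 groups of 4: kidney of sham rats, of rats with CPB, and of rats with CPB and nitrite (CPB+Nitrite), an ion from which tissues can form nitric oxide. The series asks how bypass injures the kidney and whether nitrite lessens it. The labels give no strain, sex, age, dose, duration or time of sampling, and nothing in them says that the libraries of a group come from separate animals. The p-values therefore measure only the spread between these libraries, which may in part be technical.

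Collagens are secreted proteins in which 3 alpha chains wind into a triple helix. Fibrillar chains (types I, II, III, V, XI, XXIV and XXVII) build the banded fibres of the interstitium and of vessel walls, and their accumulation marks scarring of the kidney. Type IV chains build the sheet-like network of basement membranes. Col4a1 and Col4a2 form the network found under nearly all epithelia and around vessels, whereas Col4a3, Col4a4 and Col4a5 form the network of the mature glomerular filter and Col4a5 joins Col4a6 in some other membranes. Inherited loss of Col4a3, Col4a4 or Col4a5 causes Alport syndrome, in which the filter fails. Types XV and XVIII decorate basement membranes, type VII anchors them, type VI forms beaded filaments beside them, and type VIII, a short-chain network collagen, is made by vascular and glomerular cells.

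The 6 type IV genes lie in 3 pairs that run away from each other on opposite strands, and in 2 of the pairs the partners overlap at their starts. Col4a1 (chromosome 16, 78183533 to 78294412, plus strand, build mRatBN7.2 as deposited) and Col4a2 (78047602 to 78183839, minus strand) overlapped by 307 bases at their starts. Col4a3 (chromosome 9, 83875561 to 84001895, plus strand) and Col4a4 (83755515 to 83875876, minus strand) overlapped by 316 bases, and Col4a5 (chromosome X, 105118820 to 105322692, plus strand) lay 1319 bases from Col4a6 (104766957 to 105117500, minus strand). The library kit keeps strand, but whether the counting used it is not given in the sources used here, so reads from the overlapping ends may have been shared between partners. RefSeq promoter windows of 250 bases before to 50 bases after the start were found for 35 of the 44 members, in build GRCr8, and those of Col4a1 and Col4a2 shared 176 bases. Of all 33469 windows of that table, 10.2% overlapped a window on the opposite strand. RefSeq set the starts of Col4a1 and Col4a2 77 bases apart and those of Col4a3 and Col4a4 413 bases apart, whereas the deposited genes overlap. The 2 annotations thus place the starts differently. The stretches below are the parts upstream of the RefSeq starts for the chains on which the bypass comparison turns. The first is the DNA between the RefSeq starts of Col4a1 and Col4a2 (chr16:84885521-84885596), which both rose, by unequal amounts. The others are the upstream sides of Col4a3 (chr9:91323740-91323989), which fell, Col8a1 (chr11:56246532-56246781), which rose, and Col8a2 (chr5:143870519-143870768), which fell. All are on the plus strand, 5′ to 3′, and capitals mark GGGCGG, a GC box, or its reverse complement.
Col4a1-Col4a2: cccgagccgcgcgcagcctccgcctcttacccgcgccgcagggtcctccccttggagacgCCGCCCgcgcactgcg
Col4a3: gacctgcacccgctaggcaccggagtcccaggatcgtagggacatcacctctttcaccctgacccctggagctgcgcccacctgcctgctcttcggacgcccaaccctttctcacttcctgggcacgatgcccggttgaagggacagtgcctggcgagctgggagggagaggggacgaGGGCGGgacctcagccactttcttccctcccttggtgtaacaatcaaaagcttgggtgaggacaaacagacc
Col8a1: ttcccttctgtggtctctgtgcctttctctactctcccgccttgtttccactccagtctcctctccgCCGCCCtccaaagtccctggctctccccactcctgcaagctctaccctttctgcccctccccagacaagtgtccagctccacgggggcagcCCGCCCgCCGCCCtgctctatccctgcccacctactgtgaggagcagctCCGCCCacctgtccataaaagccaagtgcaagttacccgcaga
Col8a2: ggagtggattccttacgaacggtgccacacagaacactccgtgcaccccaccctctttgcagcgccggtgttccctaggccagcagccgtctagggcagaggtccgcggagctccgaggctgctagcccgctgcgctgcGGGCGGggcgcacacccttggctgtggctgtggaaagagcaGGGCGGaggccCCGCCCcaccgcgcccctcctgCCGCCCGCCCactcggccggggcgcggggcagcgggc

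Searched on both strands of the full windows, GGGCGG was present in those of 5 of the 6 type IV genes and of 6 of the 8 fibrillar genes with a window, against 33.1% of all windows. The TATA box TATAAA was present in 0 of the 6 type IV genes and in 1 of the 8 fibrillar genes (14.2% of all windows), and CCAAT in 2 of 6 and 3 of 8 (37.5% of all windows). Col4a1 and Col4a2 were counted for the same GGGCGG matches, and for a CCAAT match in common, within the bases that their windows share. GC content was 48.3% to 75% in the type IV windows, against a median of 51.7% over all windows. Its part in these counts was not tested. In Col8a2 a pair of GGGCGG matches overlap each other. These are matches of letters in these windows and do not mark a site as used.

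Read totals ran from 16.8 to 25.8 M reads per library (M, mega), and 14664 genes passed the filter on low counts, 34 of the 44 collagen chains among them. Levels are given as counts-per-million (CPM) after scaling between libraries. They are not divided by transcript length, so levels are compared between libraries and not between genes. CPB+Nitrite 2 stood apart from the other libraries, and its median correlation with its own group was the lowest (0.918). Its summed level of the thick ascending limb markers Umod and Slc12a1 was 390 CPM against 4316 to 7855 CPM elsewhere. Of the collecting duct markers, Aqp2 was at 2758 CPM there against 308 to 989 CPM elsewhere. Scnn1g, the other marker of that list, was at its lowest level there, 50.4 CPM against 52.6 to 131 CPM elsewhere. The summed level of 6 endothelial markers was 832 against 70.7 to 215 CPM. CPB+Nitrite 2 held the highest level of 21 of the 34 tested chains, and of 21.4% of all tested genes. Sham 1 held the highest summed levels of the smooth muscle, adipocyte and urothelial markers (622, 339 and 164 CPM), and CPB+Nitrite 1 held 112 CPM of urothelial markers against 0.486 to 28.6 CPM in the other 10 libraries. Of 4 adrenal markers 2 had reads, at a summed level of at most 3.15 CPM.

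CPB versus sham asks what bypass does to the collagen transcripts of the kidney. The network-forming chains split. Col4a1 and Col4a2, the chains of the common basement membrane network, rose 2.62-fold and 2.03-fold, Col8a1 rose 5.38-fold and the epithelial transmembrane collagen Col17a1 rose 2.72-fold. The glomerular chain Col4a3, the type VIII partner Col8a2, the type VI chain Col6a1 and the minor fibrillar chain Col5a3 fell. The main fibrillar chains of scar tissue, Col1a1, Col1a2 and Col3a1, had lower means after bypass and did not pass. In all 8 of 34 chains passed the quasi-likelihood test of edgeR (Benjamini-Hochberg adjusted over all genes tested), 4 higher and 4 lower (23.5% of the chains), where 43.2% of all genes passed (21.7% higher and 21.5% lower). The share of chains that passed was thus below that of all genes. The median log2 change of the 34 chains was -0.46, against -0.05 over all genes tested. In whole tissue fewer cells of a type and less RNA per cell cannot be told apart.

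Among type IV chains 2 rose, 1 fell and 3 did not pass, where 21.7% of all genes rose and 21.5% fell. Col4a1 (ENSRNOG00000016281) was at 158, 121, 144 and 269.9 CPM in sham 1 to 4 and at 274, 387, 428 and 728 CPM in CPB 1 to 4. Every CPB library lay above every sham library, with sham 4 and CPB 1 almost level. The mean went from 173 ± 66.2 to 454 ± 193 CPM (SD, n = 4 each), which is 1.39 on the log2 scale (standard error 0.33, adjusted p = 0.00673). The call held in each of the 12 fits that left out 1 library (1.07 to 1.69). Its partner Col4a2 (ENSRNOG00000023972) was at 104, 89.1, 103 and 192 CPM in the sham libraries and at 161, 221, 241 and 368 CPM in the CPB libraries. Sham 4 lay above CPB 1, so the groups overlapped by a single library. Its rise of 1.02 on the log2 scale had a standard error of 0.31 (adjusted p = 0.0192), and it missed the threshold without sham 1 (0.95), sham 2 (0.90) or CPB 4 (0.77).

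The glomerular chains did not follow. Col4a3 (ENSRNOG00000015365) was at 68.9, 111, 112 and 163 CPM in sham 1 to 4 and at 32.8, 56.1, 42.1 and 69.1 CPM in CPB 1 to 4. Sham 1 and CPB 4 all but coincided, and every other sham library lay above every CPB library. The log2 change was -1.19 with a standard error of 0.45 (adjusted p = 0.0484), so the call was near the threshold. It was lost without any of sham 2, 3 and 4, CPB 1 to 4 or CPB+Nitrite 3 (-0.96 to -1.38), and with median-of-ratios scaling (-1.15) or the authors' factors (-1.14). Col4a4, which shares its start region with Col4a3, was at 156, 187, 195 and 289 CPM in sham and 111, 182, 161 and 247 CPM in CPB (log2 change -0.24, standard error 0.33, adjusted p = 0.573). Col4a5 was at 74.8 ± 15.1 and 50.6 ± 13.5 CPM (-0.56, adjusted p = 0.183). Col4a6 was at 2.41 to 3.82 CPM in sham and at 0.948, 1.08, 0.85 and 2.28 CPM in CPB, with no overlap (-1.19, adjusted p = 0.213). Col4a5 and Col4a6 passed without CPB+Nitrite 2 (-0.56 and -1.20), a library of neither group that enters the shared estimate of the spread. Of 6 podocyte markers 0 passed, where 43.2% of all genes passed (21.7% higher and 21.5% lower). Their summed level was 209.8 to 398 CPM in sham and 192 to 371 CPM in CPB. Of 6 endothelial markers 1 rose and 3 fell, at summed levels of 96.5 to 215 and 70.7 to 129 CPM. The part of both lists in the type IV results was not tested.

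**Figure D1:**
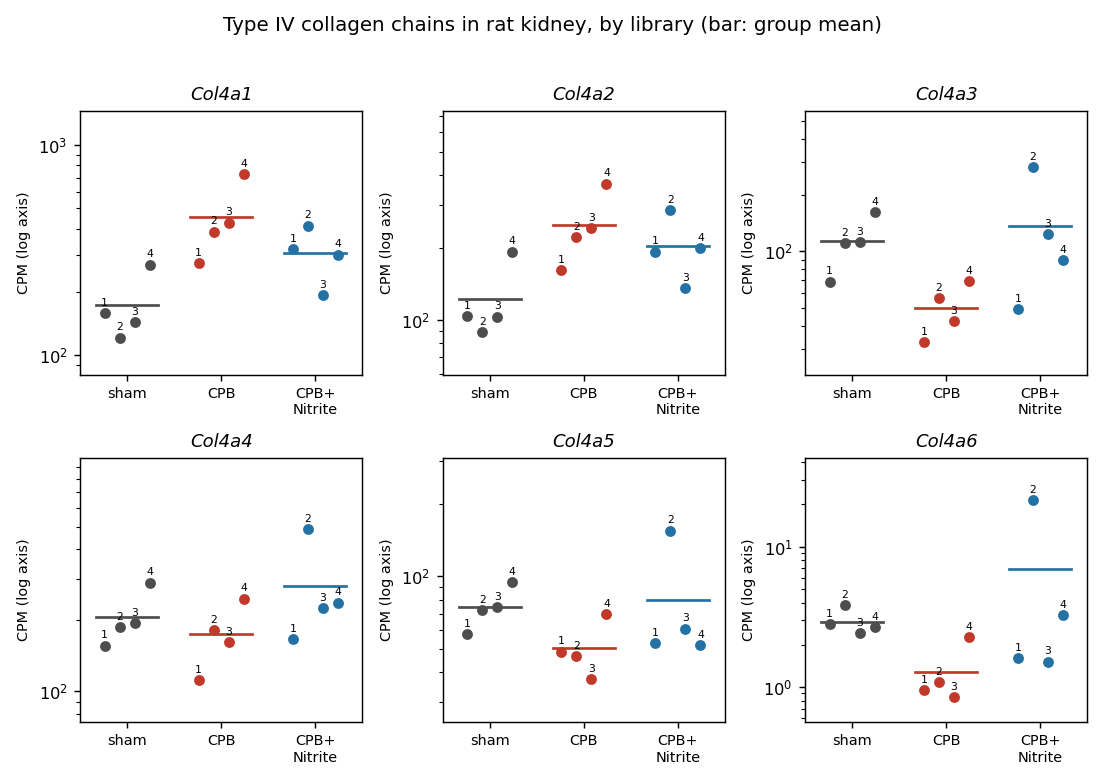
Levels of the 6 type IV collagen chains in each library (CPM, log axis), with the replicate number beside each point and a bar at the group mean. Col4a1 lies between 121 and 269.9 CPM in sham and between 274 and 728 CPM in CPB, while Col4a3 lies lower in CPB, and CPB+Nitrite 2 is the highest library for Col4a3 to Col4a6.

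Ratios of read counts between chains of the same library do not depend on the scaling between libraries. Col4a3 to Col4a1 was 0.436, 0.915, 0.779 and 0.604 in sham 1 to 4, and 0.119, 0.145, 0.0985 and 0.0949 in CPB 1 to 4. This pair was picked after its values were seen, so no test was made. Col4a3 to its neighbour Col4a4 was 0.442 to 0.594 in sham and 0.262 to 0.309 in CPB, and Col4a1 to its neighbour Col4a2 was 1.36 to 1.52 in sham and 1.70 to 1.97 in CPB. In all of these ratios no CPB library reached the range of the sham libraries. Within these 2 head-to-head pairs the chains shifted by unequal amounts after bypass.

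**Figure D2:**
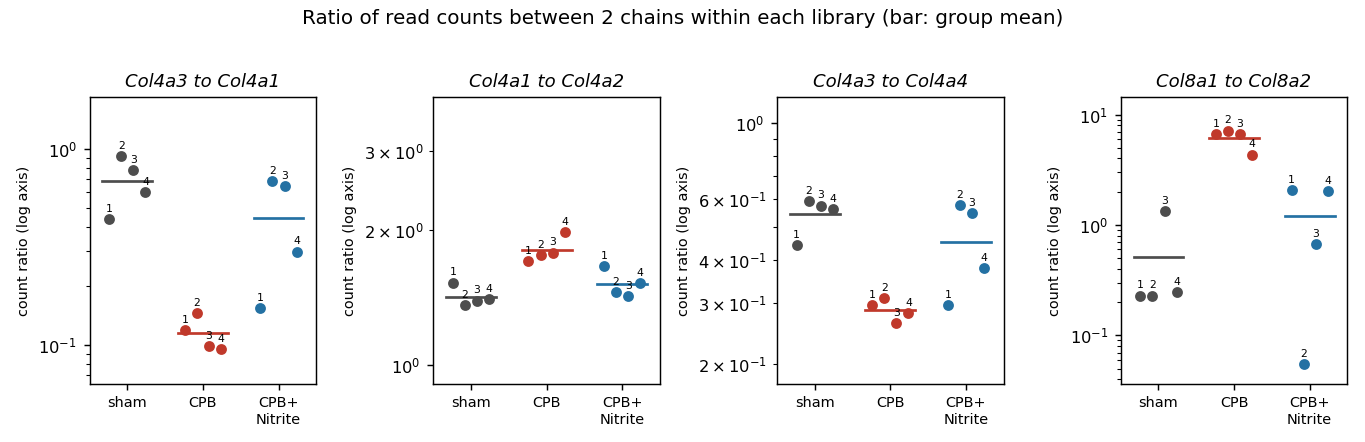
Ratio of the read counts of 2 chains within each library (log axis, not corrected for length), with replicate numbers beside the points and a bar at the group mean. The sham libraries hold a Col4a3 to Col4a1 ratio of 0.436 to 0.915, the CPB libraries of 0.0949 to 0.145 and the nitrite libraries of 0.154 to 0.685, and Col8a1 to Col8a2 lies highest in CPB.

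Type VIII collagen split between its chains. Col8a1 (ENSRNOG00000039668, chromosome 11, 42777628 to 42906424, plus strand, mRatBN7.2) was at 0.931, 1.33, 2.82 and 2.13 CPM in sham and at 11.8, 13.5, 5.61 and 7.84 CPM in CPB. All 4 CPB libraries lay well above all 4 sham libraries. It rose by 2.43 on the log2 scale (standard error 0.62, adjusted p = 0.00897), and the call held in each of the 12 fits that left out 1 library (2.21 to 2.74). Col8a2 (ENSRNOG00000010841, chromosome 5, 138585999 to 138612850, plus strand) was at 4.06, 5.79, 2.13 and 8.60 CPM in sham and at 1.78, 1.89, 0.850 and 1.81 CPM in CPB. Here all 4 CPB libraries lay below all 4 sham libraries, CPB 2 only just below sham 3. The change was -1.69 on the log2 scale (standard error 0.60, adjusted p = 0.0373). It missed the threshold without any of sham 1, 2 and 4 or CPB 1 to 4 (-1.33 to -1.79). The ratio of Col8a1 to Col8a2 was 0.229, 0.229, 1.33 and 0.247 in sham and 6.64, 7.14, 6.60 and 4.33 in CPB, again a pair picked after its values were seen.

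The epithelial chain Col17a1 rose, and the 3 chains of the basement membrane zone (Col18a1, Col15a1 and Col7a1) did not pass. Col17a1 (ENSRNOG00000012110, chromosome 1, 246531367 to 246577632, minus strand) encodes the collagen of hemidesmosomes, which fasten epithelial cells to the membrane below. It was at 5.81, 3.38, 4.54 and 4.01 CPM in sham and at 9.24, 10.6, 11.4 and 17.1 CPM in CPB, with no overlap (log2 change 1.44, standard error 0.53, adjusted p = 0.0433). The call was lost without any single sham or CPB library (1.24 to 1.60) and with scaling by library totals (1.24). Markers of urothelium, which also holds hemidesmosomes, summed to 0.918 to 164 CPM in sham and to 0.486 to 6.36 CPM in CPB. Of these 5 markers 2 fell, where 21.5% of all genes fell. Col18a1, the source of endostatin, was at 249, 212, 275 and 285 CPM in sham and at 415, 465, 317 and 522 CPM in CPB. The groups did not overlap, and the log2 change of 0.75 (standard error 0.31) had an adjusted p of 0.0636. It passed without CPB+Nitrite 1, 2 or 3 (0.78, 0.75 and 0.75). Col15a1 had a log2 change of 0.35 (adjusted p = 0.457), and Col7a1, which forms anchoring fibrils, was at 7.24 ± 2.58 and 5.44 ± 2.51 CPM.

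Of the 11 fibrillar chains 10 were tested, of which 1 fell and none rose, where 21.5% of all genes fell and 21.7% rose. A negative log2 change was found for 9 of the 10. Their median was -0.96, against -0.05 over all genes. Col1a1, the main chain of type I collagen, was at 26.0, 32.1, 7.24 and 17.7 CPM in sham and at 4.90, 4.59, 4.08 and 18.6 CPM in CPB. Sham 3 and CPB 4 each lay within the range of the other group. Its log2 change was -1.38 (standard error 0.61, adjusted p = 0.0824), and it passed without sham 3 (-1.66), without CPB 4 (-2.19) or with scaling by library totals (-1.62). Col1a2, the second chain of type I, was at 32.7, 35.4, 9.24 and 37.4 CPM in sham and at 9.32, 13.7, 10.9 and 31.4 CPM in CPB, with sham 3 below all CPB libraries and CPB 4 within the sham range (-0.82, standard error 0.55, adjusted p = 0.241). Col3a1, the chain of type III collagen, was at 50.5, 60.5, 13.1 and 67.0 CPM in sham and at 11.2, 26.1, 19.5 and 32.0 CPM in CPB. Sham 3 lay among the CPB libraries (-1.11, standard error 0.49, adjusted p = 0.0836), and the change passed without it (-1.42) or with library totals (-1.33).

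Col5a3, a chain of type V collagen that regulates fibril width, was the fibrillar chain that fell. It was at 8.31, 2.86, 0.164 and 0.580 CPM in sham and at 0.514, 0.270, 0.113 and 0.134 CPM in CPB, so sham 1 and sham 2 carried the difference. The log2 change of -3.44 (standard error 1.10, adjusted p = 0.0247) was -2.14 without sham 1 and no longer passed, nor did it without CPB 2, 3 or 4 (-3.45, -3.20 and -3.25). Without CPB 1 it was -4.06 and passed. With limma voom Col5a3 did not pass. Col5a1, Col5a2 and Col11a1 had lower means in CPB and did not pass. Col11a1 was at 1.94 to 5.12 CPM in sham and 1.07 to 1.73 CPM in CPB, with no overlap. Neither did Col24a1 (0.805 ± 0.361 CPM in sham and 0.946 ± 0.369 CPM in CPB), Col11a2 (15.9 ± 1.87 and 15.7 ± 7.51 CPM) or Col27a1 (49.6 to 71.6 and 35.4 to 64.8 CPM).

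Of the 6 type VI chains, which stromal cells make, 4 were tested and 1 fell (21.5% of all genes fell), with a median log2 change of -0.94. Col6a1 (ENSRNOG00000001249, chromosome 20, 11905957 to 11924597, plus strand) was at 27.4, 14.5, 4.95 and 23.1 CPM in sham and at 4.94, 8.69, 4.64 and 8.57 CPM in CPB. Only sham 3 lay within the CPB range. The log2 change was -1.39 with a standard error of 0.52 (adjusted p = 0.0471), lost without any of sham 1, 2 and 4, CPB 1 to 4 or CPB+Nitrite 1 and 4 (-1.08 to -1.54). The call was also lost with median-of-ratios scaling, the authors' factors or limma voom, and with sham 1 and CPB+Nitrite 2 both left out. Col6a2, on the same chromosome, was at 31.1, 17.3, 6.22 and 26.1 CPM in sham and at 4.98, 8.85, 4.59 and 11.1 CPM in CPB (-1.45, standard error 0.56, adjusted p = 0.0522), and it passed without sham 3 (-1.75) or CPB+Nitrite 2 (-1.46). Col6a3, the third chain of the classic type VI trimer, was at 17.3 ± 8.58 and 17.5 ± 8.51 CPM, and Col6a6 at 14.1 to 16.9 and 9.01 to 12.1 CPM. Among the 6 tested fibril-associated chains none passed and the median was -0.17. Col14a1, which binds to fibril surfaces, had the smallest p of them. It was at 3.09, 4.35, 0.286 and 1.74 CPM in sham and 0.672, 0.594, 0.283 and 1.27 CPM in CPB (-1.76, standard error 0.82, adjusted p = 0.0965), and it passed without sham 3 (-2.12).

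Some markers of stromal cells fell in CPB, where 21.5% of all genes fell. Of 5 tested fibroblast markers 2 fell, and the summed level of the list was 72.9 to 149 CPM in sham and 64.0 to 84.6 CPM in CPB. Of 5 smooth muscle markers 4 fell, with sums of 79.2 to 622 and 37.6 to 105 CPM. Of 5 pericyte and mesangial markers 1 fell and Gata3 had a positive log2 change (0.45), with sums of 45.3 to 90.3 and 52.6 to 89.2 CPM. Sham 3, the sham library with the lowest Col1a1, Col1a2, Col3a1, Col6a1 and Col6a2, also had the lowest sham sums of these 3 lists. Adipocyte markers summed to 61.3 to 339 CPM in sham, highest in sham 1, and to 80.7 to 103 CPM in CPB. The part of these cell types in the collagen results was not tested. With sham 1 and CPB+Nitrite 2 both left out, an alternative added after the data were seen, 11 chains passed, 4 higher (Col4a1, Col4a2, Col8a1 and Col17a1) and 7 lower (Col4a3, Col4a5, Col4a6, Col5a1, Col6a2, Col8a2 and Col11a1), where 44.4% of all genes passed.

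**Figure D3:**
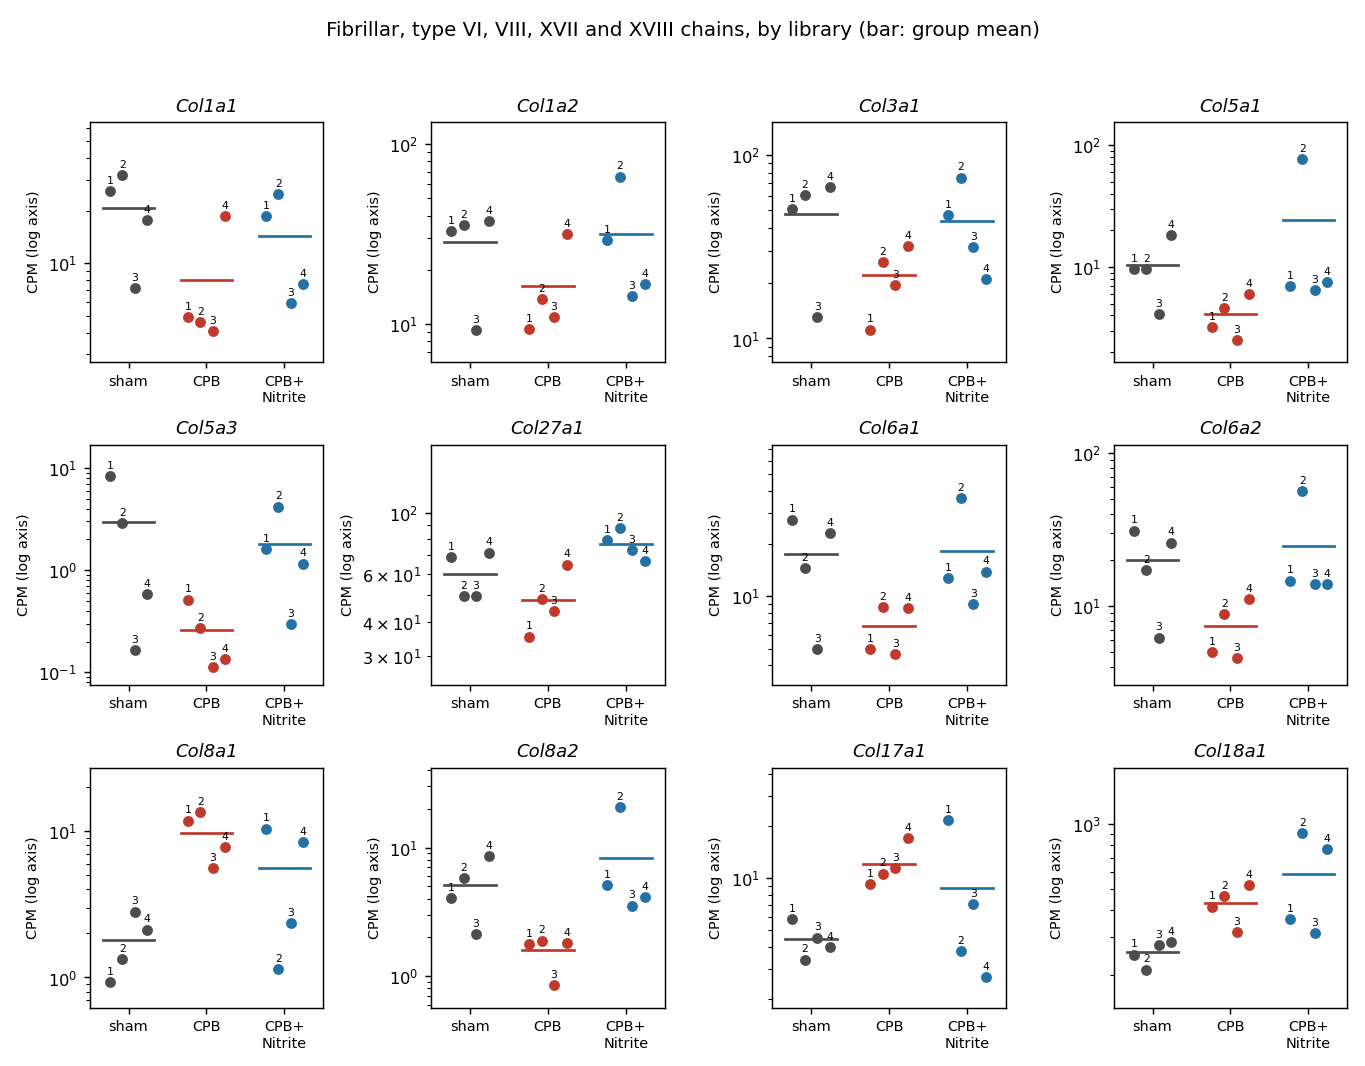
Levels of 12 fibrillar, type VI, VIII, XVII and XVIII chains in each library (CPM, log axis), with replicate numbers beside the points and a bar at the group mean. Col8a1 and Col17a1 lie higher in CPB than in sham without overlap, Col8a2 lower without overlap, and for Col1a1 and Col1a2 sham 3 is the lowest sham library and CPB 4 the highest CPB library.

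The count of chains that passed depended on single libraries. It was 3 without sham 1 (where 33.9% of all genes passed), sham 2 (31.7%), CPB 2 (33.2%), CPB 3 (32.4%) or CPB 4 (32.4%). It was 4 without sham 4 (35.5%) or CPB 1 (40.6%) and 10 without sham 3 (37.8%). It was 7 or 8 without CPB+Nitrite 1, 3 or 4 (43.7% to 44% of genes) and 15 without CPB+Nitrite 2 (5 higher and 10 lower, where 51.3% of all genes passed). Col4a1 and Col8a1 passed in every one of the 12. Groups that did not overlap were found for 8 of 34 chains, 4 higher (Col4a1, Col8a1, Col17a1 and Col18a1) and 4 lower (Col4a6, Col6a6, Col8a2 and Col11a1), where 48.2% of all genes did not overlap (23.5% higher and 24.8% lower). Scaling by library totals moved the median of all genes to -0.24 and the calls to 3 higher and 8 lower, where 44.7% of genes passed. By limma voom 15 chains passed (61.4% of genes), in a fit of only these 2 groups 16 (55.6% of genes) and in a fit with the replicate number as a block 9 (42.5% of genes). The 15 of limma voom did not include Col5a3 and Col6a1, which passed in the main fit.

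CPB+Nitrite versus CPB asks what nitrite changed under bypass. By edgeR 0 of the 34 chains passed, and 0% of all genes did. It uses the same CPB libraries as the comparison with sham, so the 2 sets of changes are not independent. The log2 change was positive for 29 of 34 chains, against 54.1% of all genes, and the median was 0.69, against 0.05. The 5 negative ones were Col4a1, Col4a2, Col8a1, Col17a1 and Col11a2. An unadjusted p under 0.05 was found for 13 chains, all higher, where 29.4% of all genes had one (17.3% higher). DESeq2 called 12 of the 40 chains it tested, all higher, where it called 14.7% of genes, and limma voom called 0, where it called 0.00682%. CPB+Nitrite 2 weighed on these values: without it the median over the chains was 0.38, and all-gene calls stayed at 0. Without CPB+Nitrite 1, 9 chains passed, 8 higher (Col4a3, Col4a6, Col5a1, Col5a2, Col6a2, Col8a2, Col11a1 and Col16a1) and Col17a1 lower, where 19.3% of all genes passed.

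The 6 type IV chains had a median of 0.67, and 0.19 without CPB+Nitrite 2. Col4a3 was at 49.0, 284, 124 and 90.0 CPM in CPB+Nitrite 1 to 4, of which libraries 2 to 4 lay above all CPB libraries and library 1 within their range. The log2 change from CPB was 1.45 with a standard error of 0.45 (adjusted p = 0.0744), 0.81 without CPB+Nitrite 2 and 1.69 without CPB+Nitrite 1, where it passed. Col4a4 was at 166, 490.4, 226 and 238 CPM (0.68, adjusted p = 0.191), and Col4a5 at 52.9, 154, 60.6 and 51.8 CPM (0.66, adjusted p = 0.201). Without CPB+Nitrite 2 these changes were 0.26 and 0.12. Col4a6 was at 1.61, 21.4, 1.52 and 3.25 CPM (2.44, adjusted p = 0.0756), and its change was 0.74 without CPB+Nitrite 2 and 2.74, past the threshold, without CPB+Nitrite 1. Col4a1 was at 319, 414, 192 and 301 CPM, which overlapped CPB and sham alike (-0.57 from CPB, standard error 0.33, adjusted p = 0.255). Col4a2 was at 192, 286, 135 and 198 CPM (-0.29, adjusted p = 0.536).

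The ratios within libraries showed how the nitrite libraries divided. Col4a3 to Col4a1 was 0.154, 0.685, 0.643 and 0.299 in CPB+Nitrite 1 to 4, all above the CPB libraries, with libraries 2 and 3 inside the sham range and libraries 1 and 4 below it. Col4a3 to Col4a4 was 0.295, 0.578, 0.547 and 0.379, where library 1 was inside the CPB range. Col8a1 to Col8a2 was 2.06, 0.0548, 0.667 and 2.03, all below the CPB libraries. Podocyte markers summed to 463, 823, 306 and 472 CPM in CPB+Nitrite 1 to 4 against 192 to 371 CPM in CPB, with 0 of 6 past the threshold, and their part in the values of Col4a3 and Col4a4 was not tested.

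Col8a2 had the smallest p of all chains in this comparison. It was at 5.07, 20.7, 3.53 and 4.13 CPM in CPB+Nitrite 1 to 4, each above all CPB libraries. The log2 change was 2.40 with a standard error of 0.61 (adjusted p = 0.0584), 1.42 without CPB+Nitrite 2 and 2.54, past the threshold, without CPB+Nitrite 1. Col8a1 was at 10.4, 1.14, 2.35 and 8.40 CPM, so libraries 1 and 4 lay at the CPB level and libraries 2 and 3 at the sham level (-0.80, adjusted p = 0.364). Col17a1 was at 21.7, 3.77, 7.10 and 2.67 CPM, with library 1 above every other library of the study (-0.45, adjusted p = 0.565). Without CPB+Nitrite 1 the change of Col17a1 was -1.46 and passed. Urothelial markers summed to 112 CPM in CPB+Nitrite 1, and to 164 CPM in sham 1, where Col17a1 was at 5.81 CPM. Their part in the Col17a1 values was not tested. Col18a1 was at 362, 907, 314 and 766 CPM (0.45, adjusted p = 0.329) and Col15a1 at 11.4, 17.6, 5.49 and 8.45 CPM (0.54, adjusted p = 0.334).

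Fibrillar chains had a median log2 change of 0.97, and 0.53 without CPB+Nitrite 2, with 9 of 10 positive in both cases. Col5a1, a chain of the type V collagen that starts fibrils, was at 6.97, 77.3, 6.47 and 7.56 CPM, each above the CPB libraries, which reached 6.03 CPM. Its log2 change was 2.60 with a standard error of 0.80 (adjusted p = 0.0736), but 0.79 without CPB+Nitrite 2, and it passed without CPB+Nitrite 1 (2.87). Col11a1 was at 1.23, 25.9, 2.74 and 4.45 CPM (2.59, adjusted p = 0.0700), with 0.97 without CPB+Nitrite 2 and 2.91, past the threshold, without CPB+Nitrite 1. Col27a1 rested less on that library, at 79.3, 88.2, 73.1 and 66.5 CPM against 35.4, 48.4, 43.9 and 64.8 CPM in CPB. All 4 nitrite libraries lay above all 4 CPB libraries (0.68, standard error 0.19, adjusted p = 0.0653), and the change was 0.60 without CPB+Nitrite 2. Col1a1 was at 18.6, 24.9, 5.93 and 7.56 CPM (0.84, adjusted p = 0.357), Col1a2 at 29.3, 65.8, 14.4 and 16.7 CPM (0.96, adjusted p = 0.255) and Col3a1 at 46.9, 75.3, 31.5 and 21.2 CPM (0.98, adjusted p = 0.197). In these 3 chains libraries 1 and 2 were the highest of the group. Without CPB+Nitrite 2 the change of Col1a2 was 0.31, and without CPB 4 that of Col1a1 was 1.65, and neither passed.

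The type VI chains Col6a1 and Col6a2 were higher in every nitrite library than in any CPB library, and did not pass. Col6a1 was at 12.7, 36.7, 8.96 and 13.8 CPM (1.43, standard error 0.52, adjusted p = 0.102) and Col6a2 at 14.7, 56.3, 14.0 and 14.0 CPM (1.75, standard error 0.57, adjusted p = 0.0789). Without CPB+Nitrite 2 the changes were 0.82 and 0.95, and Col6a2 passed without CPB+Nitrite 1 (1.90). Among fibril-associated chains Col16a1 was at 4.73, 41.0, 3.48 and 8.89 CPM (2.08, adjusted p = 0.0858), with 0.73 without CPB+Nitrite 2 and 2.34, past the threshold, without CPB+Nitrite 1. In all, 5 of 34 chains did not overlap between CPB+Nitrite and CPB, all higher with nitrite (Col5a1, Col6a1, Col6a2, Col8a2 and Col27a1), where 12.7% of all genes did not overlap (6.44% higher). Fibroblast markers summed to 85.1 to 301 CPM in CPB+Nitrite (85.1 to 125 CPM without library 2) against 64.0 to 84.6 CPM in CPB, smooth muscle markers to 184 to 246 against 37.6 to 105 CPM, and 0 of the 5 tested markers of each list passed. Their part in these values was not tested.

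**Figure D4:**
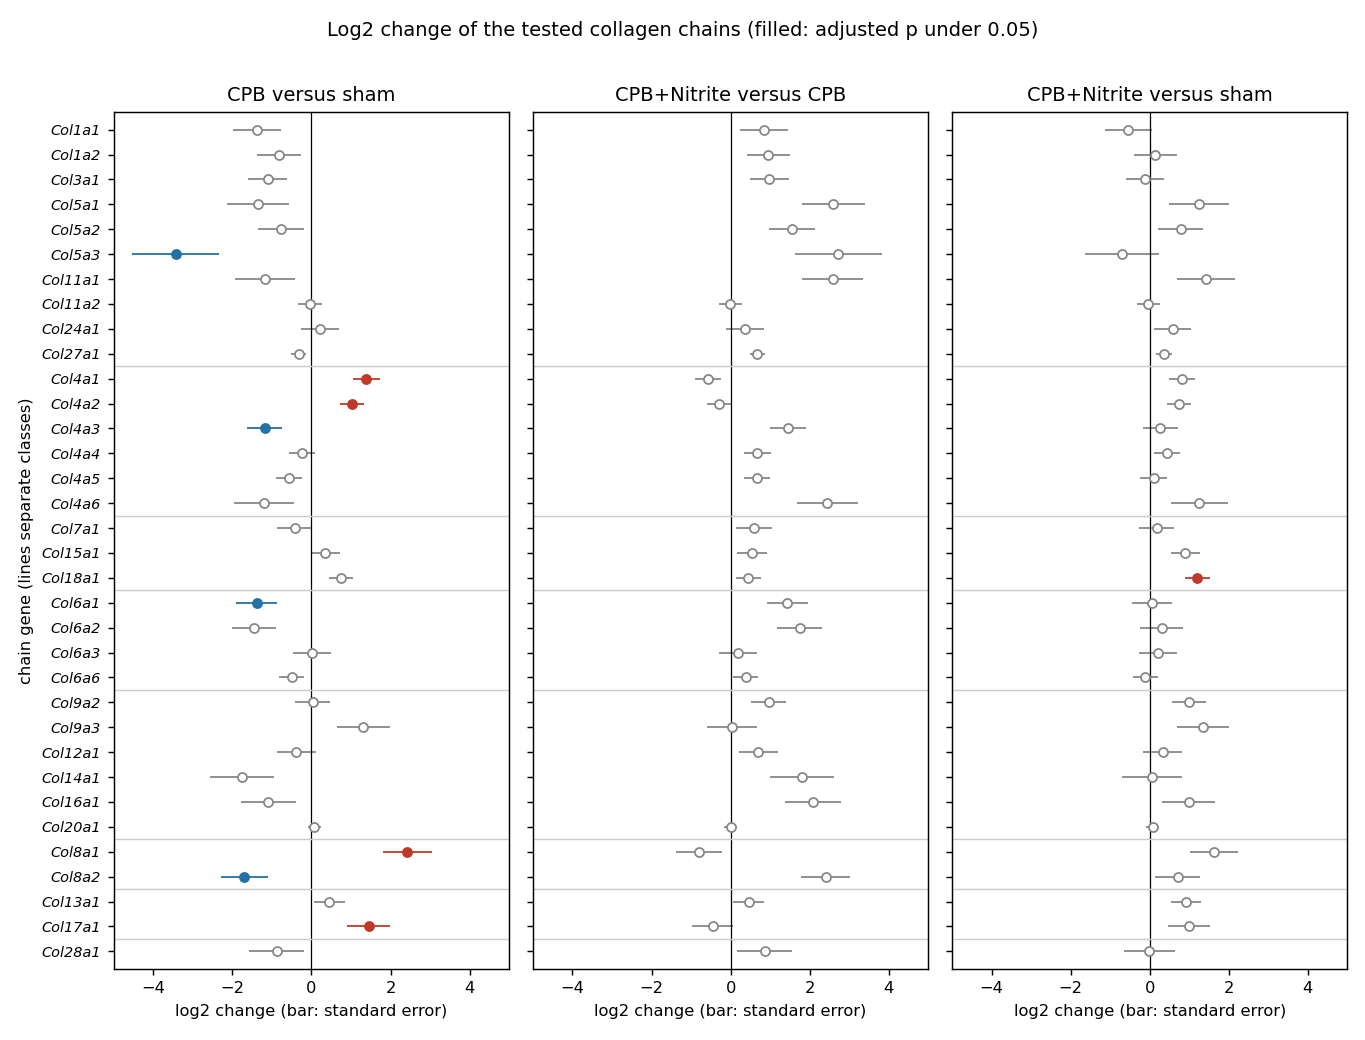
Log2 change of the 34 tested chains in the 3 comparisons, with bars for the standard error and filled points for an adjusted p under 0.05, grouped by class. In CPB versus sham 4 chains are filled to the right and 4 to the left, in CPB+Nitrite versus CPB none, and in CPB+Nitrite versus sham Col18a1 alone.

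CPB+Nitrite versus sham asks how far the treated kidneys lay from controls. It shares libraries with both other comparisons and is not independent of them. Col18a1 was the 1 chain of 34 that passed, and 4.81% of all genes did (3.85% higher). All 4 nitrite libraries (314 to 907 CPM) lay above the sham libraries (212 to 285 CPM), with a log2 change of 1.20 and a standard error of 0.31 (adjusted p = 0.0484). The call was near the threshold and was lost without any single library other than CPB+Nitrite 3 (0.91 to 1.36), and CPB 1 to 4, which do not enter the difference itself, were among those libraries. Col8a1 had a log2 change of 1.63 (adjusted p = 0.114) and passed without CPB+Nitrite 2 (1.98) or CPB+Nitrite 3 (1.88). Col4a1 stood at 0.82 (adjusted p = 0.134), Col4a2 at 0.73 (adjusted p = 0.148) and Col15a1 at 0.90 (adjusted p = 0.147, and past the threshold at 1.11 without CPB+Nitrite 3). Col17a1 had a log2 change of 0.99 (adjusted p = 0.240), and 0.01 without CPB+Nitrite 1.

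The median over the 34 chains, like those of the type IV and fibrillar chains, changed sign without 1 library. It was 0.40 on the log2 scale over the 34 chains, against 0.04 over all genes. Without CPB+Nitrite 2 it was -0.07, against -0.008 over all genes, with 17 changes positive and 17 negative. For the type IV chains the median was 0.59 with all libraries and -0.18 without CPB+Nitrite 2, and for the fibrillar chains 0.25 and -0.40. The direction of these class medians thus rested on 1 library. Groups that did not overlap were found for 2 chains, Col18a1 and Col9a3, where 11.5% of all genes did not overlap. Col9a3, a fibril-associated chain, was at 0.521, 0, 0.327 and 0.290 CPM in sham and at 0.592, 0.989, 0.588 and 0.756 CPM in CPB+Nitrite, a level near the filter.

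**Figure D5:**
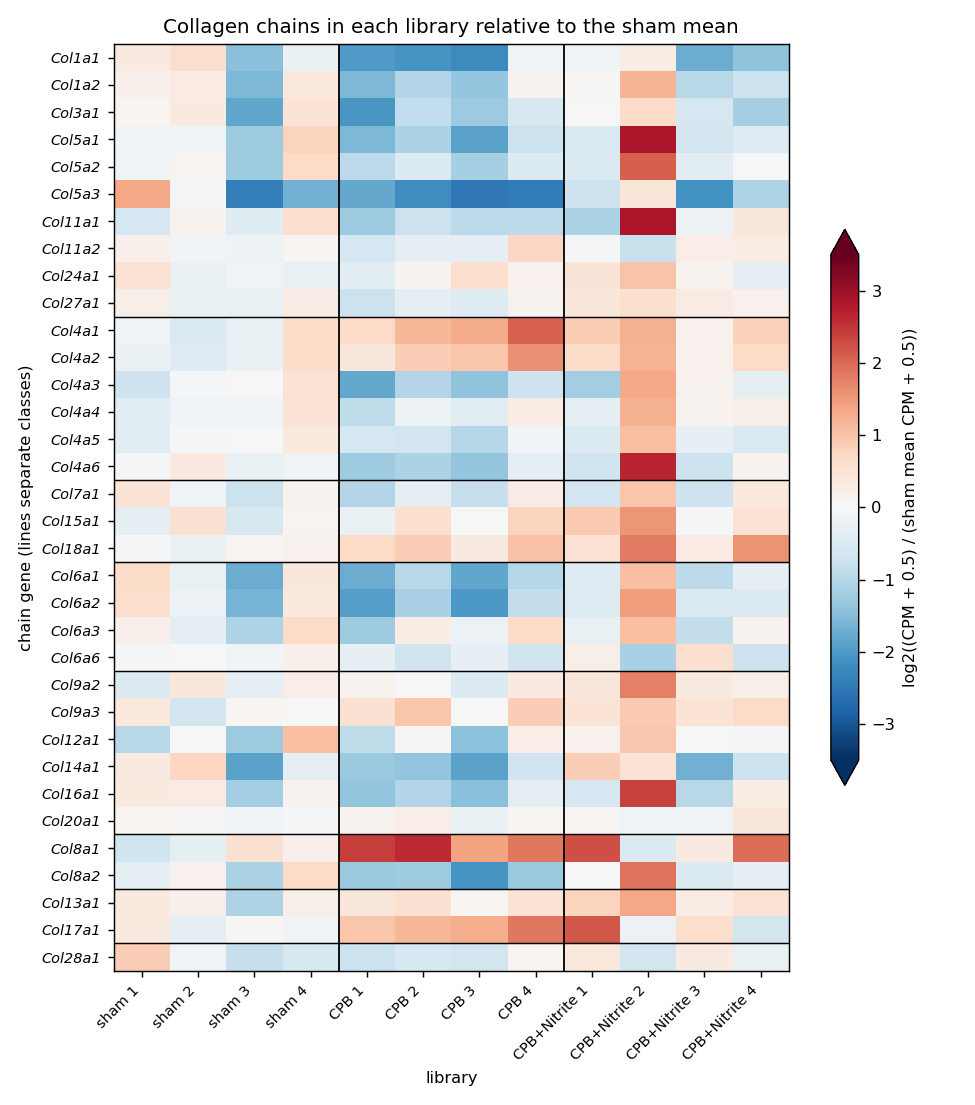
Each tested chain in each library as the log2 ratio of CPM + 0.5 to the sham mean + 0.5, with red above and blue below sham and lines between classes. The CPB columns are red for Col4a1, Col4a2, Col8a1, Col17a1 and Col18a1, and the column of CPB+Nitrite 2 is red for most fibrillar, type IV and type VI chains.

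Genes that process, cross-link, degrade and bind collagens were read from lists. In CPB versus sham 43.2% of all genes passed (21.7% higher and 21.5% lower), and no count of a list was tested against that share. Here 4 of 16 tested genes of chain modification and folding rose and 5 fell. P4ha1, the catalytic subunit of prolyl 4-hydroxylase, rose from 55.4 ± 11.1 to 195 ± 75.1 CPM (log2 change 1.81), whereas P3h1 and P3h2, which hydroxylate proline at the 3 position, fell by 0.51 and 0.96 and the lysyl hydroxylase Plod2 fell by 0.96 on the log2 scale. The Plod2 call was lost without sham 2, sham 4, CPB 1, CPB 2 or CPB 4 (-0.80 to -1.05). Of 5 tested genes of propeptide removal 2 fell, both procollagen N-proteinases: Adamts2 went from 3.32 ± 1.66 to 0.463 ± 0.285 CPM (-2.85) and Adamts3 from 2.83 ± 0.204 to 0.573 ± 0.391 CPM (-2.31). Of 7 cross-linking genes Tgm2, a transglutaminase, rose (1.14) and 6 did not pass, among them Lox.

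Of 14 tested genes of collagen degradation and its inhibitors 5 rose and 3 fell. Timp1, an inhibitor of matrix metalloproteinases, rose from 5.29 ± 1.91 to 99.6 ± 15.4 CPM (4.23) and the stromelysin Mmp3 rose by 2.98 from 0.127 ± 0.146 to 1.08 ± 0.596 CPM, while the related inhibitor Timp4 fell by 2.56 on the log2 scale. Without sham 1 the change of Mmp3 was 3.58. Among 5 tested collagen receptors 3 rose: the integrin chains Itgb1 (0.89) and Itga2 (2.25), and the discoidin receptor Ddr1 (0.67). Itga2 passed in 5 of the 12 fits that left out 1 library and missed without any of sham 1, 2 and 4 or CPB 1 to 4 (1.85 to 2.31), it was 3.60 without sham 3, and Ddr1 missed without sham 2 (0.56). Of 16 basement membrane partners 4 rose and none fell. They included the laminin chains Lamc1 (1.45) and Lama5 (0.89) and the proteoglycan Agrn (1.43). Of 10 fibril partners the matrix glycoprotein tenascin-C, Tnc, rose (3.54) and Postn, Lum and Fmod fell by 2.57, 2.63 and 1.28 on the log2 scale. All 3 are at low levels, with sham means of 1.52, 1.03 and 1.61 CPM. Without sham 1 their changes were -1.61, -2.53 and -0.90 and none of the 3 passed, nor did any without sham 2, CPB 1, CPB 3 or CPB 4. Lum was at -1.82 without sham 2 and also missed without CPB 2 (-2.34), and Fmod without CPB+Nitrite 1, 3 or 4 (-1.26, -1.28 and -1.30). Lum and Dcn are also in the fibroblast list.

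With nitrite none of these 7 lists had a gene past the threshold against CPB, and for each the pair with the smallest p is given. Of chain modification these were the galactosyltransferase Colgalt2 (log2 change 2.11, adjusted p = 0.0576) and P3h4 (1.91, adjusted p = 0.0624), and of propeptide removal Adamts2 (2.24, adjusted p = 0.0715) and the C-proteinase Bmp1 (0.49, adjusted p = 0.0787). Of cross-linking they were the lysyl oxidase relatives Loxl1 (1.44, adjusted p = 0.0729) and Loxl4 (1.80, adjusted p = 0.118), and of receptors Itgb1 (-0.31, adjusted p = 0.266) and Ddr1 (-0.30, adjusted p = 0.319). Of degradation and its inhibitors they were Timp2, at 18.1 ± 1.86 CPM in CPB and 41.2 ± 17.5 CPM in CPB+Nitrite (1.19, adjusted p = 0.0576), and Timp3 (1.32, adjusted p = 0.0849). Of the basement membrane they were Sparc, which binds collagen, at 136 ± 35.4 and 290.2 ± 148 CPM (1.10, adjusted p = 0.0693), and the laminin chain Lama3 (1.43, adjusted p = 0.0767). Of fibril partners they were the microfibril gene Fbn1 (2.06, adjusted p = 0.0825) and the proteoglycan Dcn (1.47, adjusted p = 0.0831). Without CPB+Nitrite 1 the changes of Colgalt2 (2.32), P3h4 (2.12), Bmp1 (0.53), Loxl1 (1.54), Timp2 (1.21), Timp3 (1.47), Sparc (1.13), Lama3 (1.66) and Fbn1 (2.26) passed. Without CPB+Nitrite 2 none of the 14 passed, and the changes that moved most were those of Colgalt2 (1.41), P3h4 (1.04), Loxl4 (0.82), Timp3 (0.65), Lama3 (0.74), Fbn1 (0.82) and Dcn (0.68).

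Against sham, where 4.81% of all genes passed (3.85% higher), 4 of 14 genes of degradation and inhibition were higher in CPB+Nitrite, among them Timp1 by 3.32, Mmp3 by 3.68 and Mmp13 by 3.53. So were 3 of 16 basement membrane partners, among them Lamc1 by 1.07 and Lama3 by 1.81, and Tnc by 3.01. Mmp3 and Mmp13 had sham means of 0.127 and 0.0670 CPM, a few reads per library, so the size of their changes is poorly set. Leaving out 1 library at a time, Timp1 (2.77 to 3.64) and Tnc (2.72 to 3.22) passed in 8 of the 12 fits and missed without sham 1, sham 2, sham 4 or CPB+Nitrite 4. Mmp3, Mmp13, Lamc1 and Lama3 passed in 2 to 4 of the 12, and each missed without sham 1, 2 or 4, CPB 2 or 3, or CPB+Nitrite 1 or 4. Without CPB+Nitrite 2 the change of Lama3 was 1.12, and without sham 1 those of Mmp3 and Mmp13 were 4.28 and 4.69. In the lists with none past the threshold the smallest p belonged to Plod3 (0.45, adjusted p = 0.154) and P4ha1 (0.79, adjusted p = 0.184), Bmp1 (0.40, adjusted p = 0.130) and the related proteinase Tll1 (0.94, adjusted p = 0.185), Loxl4 (1.83, adjusted p = 0.121) and Lox (1.39, adjusted p = 0.141), and Itga2 (2.93, adjusted p = 0.0529) and Itgb1 (0.59, adjusted p = 0.0733). Itga2 passed without sham 3 (4.28), CPB+Nitrite 2 (2.84) or CPB+Nitrite 3 (3.22), and Itgb1 (0.70) and Loxl4 (2.16) without CPB+Nitrite 3. Loxl4 was at 0.85 without CPB+Nitrite 2, and Lox at 2.15 without sham 4.

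The tested chains not described above passed in none of the comparisons. Col12a1, a fibril-associated chain, was at 23.9 ± 18.5 CPM in sham, 18.4 ± 9.27 CPM in CPB and 29.8 ± 11.3 CPM in CPB+Nitrite. Col20a1, of the same class, was at 14.3 ± 0.824, 15.0 ± 2.02 and 15.1 ± 2.81 CPM. Col9a2 was at 1.92 ± 0.724, 1.97 ± 0.542 and 3.82 ± 2.64 CPM, and its mean with nitrite held 7.77 CPM in CPB+Nitrite 2 and 2.31 to 2.70 CPM in the other libraries. The transmembrane chain Col13a1 was at 2.13 ± 0.946, 2.93 ± 0.470 and 4.02 ± 1.55 CPM, and Col28a1 at 0.734 ± 0.702, 0.412 ± 0.264 and 0.738 ± 0.389 CPM.

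The 10 chains that did not pass the filter on low counts were Col2a1 (0 to 20 reads per library), Col6a4 (0 to 3), Col6a5 (0 to 20), Col9a1 (2 to 17), Col10a1 (0 to 79), Col19a1 (0 to 14), Col22a1 (1 to 13), Col23a1 (0 to 32), Col25a1 (0 to 5) and Col26a1 (0 to 4). Col2a1, the chain of cartilage, and Col10a1, the chain of growth-plate cartilage, held their highest counts in CPB+Nitrite 2. DESeq2, which filters genes in another way, called Col10a1 higher in CPB+Nitrite than in CPB, where the reads lay almost wholly in CPB+Nitrite 2 (79 reads, at 2.89 CPM). For the other 9 chains a difference between groups was not detectable at these counts.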

How the data were processed

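Per the labels' protocols, QIAzol was used for RNA extraction, TURBO DNA-free for DNase treatment and NEBNext Ultra II Directional for libraries. The submitters' processing notes name bcl2fastq 2.19, cutadapt 1.18, Salmon 1.2.1, R 3.5.1 and build mRatBN7.2, with no order or settings. The authors deposited estimated counts per gene, of which 33.1% of non-zero values were not whole (tolerance 1e-06), and these were rounded here. The deposited signal table held the same counts times 1 factor per library and gave symbols and coordinates and an alternative scaling. No row lacked a gene name (0 rows).

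Genes were filtered with filterByExpr (minimum count 10), which left 14664 genes with 99.95% of reads, and scaled with TMM factors (0.887 to 1.11). The test was edgeR 4.0.16 (R 4.3.3, limma 3.58.1), a two-sided quasi-likelihood F test on all 12 libraries in 3 group means with 9 residual degrees of freedom (biological coefficient of variation 0.317) and Benjamini-Hochberg adjustment over all genes at 0.05. It was tested on simulated data. Standard errors were derived from the F statistic. CPM, ratios and figures were made in Python 3.11.15.

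The members and lists were chosen with earlier results of these data known. Values are given, in at least 1 comparison and not in each, for Col1a1, Col1a2, Col3a1, the type IV chains, Col6a1 to Col6a3, Col15a1 and Col18a1. The same holds for every chain past the threshold and the smallest p of each class. In CPB+Nitrite versus sham the log2 changes of most of these chains are not reported here. Per list of partner genes, up to 4 past the threshold, or the pair with the smallest p where none passed, were named, and some that qualified are not reported here. A few chains, Col8a1 to Col8a2 and Col4a3 to Col4a1 as ratios, and Lox among the partners were named after their values were seen. The ratio of Col4a4 to Col4a1 was also chosen after its values were seen, and it is counted among the ratios searched for outlying libraries below. Alternatives were median-of-ratios scaling, library totals, no filter, a stricter filter (mean CPM of 2), DESeq2 1.42.0, limma voom with sample weights, only the 2 groups compared, a replicate block and leaving out each library. The deposited factors and leaving out sham 1 with CPB+Nitrite 2 were added after the data were seen. Protein sequences and transcript lengths were not used here.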

Additional observations from a re-analysis of the deposited data

Results flagged for a closer look

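In 99 groups of 4 libraries (26 chains and 7 ratios, each in 3 groups), 16 had a library whose gap to the nearest other, as a share of the range, exceeded Dixon's 95% critical value. Chance flags about 1 in 20 such groups if their values are normally distributed, which was not checked. The chains also share libraries, so the groups are not independent and the count of 16 was not tested against that rate. CPB+Nitrite 2 held 8 of the 16, all higher than the rest of its group. They were Col5a1 (77.3 CPM against 6.47 to 7.56), Col6a2 (56.3 against 14.0 to 14.7), Col4a5 (154 against 51.8 to 60.6), Col4a6 (21.4 against 1.52 to 3.25), Col8a2 (20.7 against 3.53 to 5.07), Col11a1 (25.9 against 1.23 to 4.45), Col16a1 (41.0 against 3.48 to 8.89) and Col9a2 (7.77 against 2.31 to 2.70).

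CPB 4 held 4. Col1a1 was at 18.6 CPM there against 4.08 to 4.90, Col4a6 at 2.28 against 0.850 to 1.08 and Col28a1 at 0.804 against 0.237 to 0.324, and its ratio of Col6a1 to Col6a2 was 0.771 against 0.982 to 1.01. Sham 3 stood apart for Col1a2, at 9.24 CPM against 32.7 to 37.4, and for the ratio of Col8a1 to Col8a2, at 1.33 against 0.229 to 0.247. Sham 4 stood apart for Col4a2 (192 CPM against 89.1 to 104) and CPB 3 for Col8a2 (0.850 CPM against 1.78 to 1.89).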

How the results depend on the processing

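For the 44 chain results printed with a log2 change, 966 alternative fits gave 850 with the same direction and side of the threshold, 63 that lost the call, 53 that gained it and 0 that changed sign. Over all 78 results of the 26 named chains, printed or not, 1706 fits gave 1501, 63, 65 and 77. The 44 printed results are a selection of these, so their 0 changes of sign hold for that selection alone. Of the 77 changes of sign 56 were in CPB+Nitrite versus sham, in 16 chains, 17 in CPB versus sham and 4 in CPB+Nitrite versus CPB, and the smallest adjusted p of such a fit was 0.118 (edgeR, DESeq2 or limma). For the 48 partner results named, 1042 fits gave 913, 99, 30 and 0.

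In CPB versus sham 8 chains passed, 15 with limma voom and 16 with only the 2 groups compared. Of fibrillar chains 1 passed, 4 with library totals, 0 with the stricter filter, 2 with DESeq2, 2 with limma voom, 3 with only the 2 groups and 2 without sham 1 and CPB+Nitrite 2. With limma voom they were Col1a1 and Col5a1, and without those libraries Col5a1 and Col11a1. Col5a3, the fibrillar call of the main fit, was in neither set. Of type IV chains 3 passed, and 5 with limma voom, with only the 2 groups and without those 2 libraries. In CPB+Nitrite versus CPB 0 genes passed, 2235 with DESeq2 and 1 with limma voom, and DESeq2 called 12 chains, 5 of them fibrillar and 2 type IV. In CPB+Nitrite versus sham 1 chain and 705 genes passed. Chains numbered 2 with DESeq2 and limma voom, and 0 with library totals, only the 2 groups, the replicate block or without sham 1 and CPB+Nitrite 2. Genes numbered 2144 with DESeq2, 2870 with limma voom, 0 with only the 2 groups, 28 with the block and 414 without those 2 libraries. The cause of these differences was not tested.

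Leaving out 1 library gave 3 to 15 chains, 1 to 5 type IV chains and 0 to 3 fibrillar chains in CPB versus sham, where 4692 to 7574 genes passed. In CPB+Nitrite versus CPB it gave 0 to 9 chains, 0 to 3 fibrillar, 0 to 2 type IV and 0 to 2865 genes, and in CPB+Nitrite versus sham 0 to 3 chains, 0 fibrillar, 0 type IV and 0 to 2976 genes.

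Libraries with the same number correlated in their deviations from the group means at -0.107 to 0.381. Libraries with unequal numbers were not compared, so these values cannot decide whether the numbers mark pairs. The main fit did not take them as pairs. With the replicate block 9 chains passed in CPB versus sham, 4 higher and 5 lower, and 0 in the other 2 comparisons. Chains under about 1 CPM, such as Col5a3 in CPB, rest on few reads, and for the 10 untested chains depth limits any comparison.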

Other observations

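Some chains did not share the high levels of CPB+Nitrite 2. Col20a1 was at 12.8 CPM there and at 12.1 to 18.9 CPM in the other 11 libraries. Col6a6 was at 6.60 CPM, its lowest level in the 12 libraries, and Col11a2 at 9.12 CPM, also its lowest. Col8a1 was at 1.14 CPM and Col17a1 at 3.77 CPM, within the sham ranges of 0.931 to 2.82 and 3.38 to 5.81 CPM.

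The ratios of the partner chains of type I and type VI collagen had ranges that overlapped between the groups. For Col1a1 to Col1a2 the sham libraries held 0.473 to 0.908, the CPB libraries 0.335 to 0.591 and the nitrite libraries 0.378 to 0.636. For Col6a1 to Col6a2 these ranges were 0.796 to 0.885, 0.771 to 1.01 and 0.640 to 0.990. Of the type I ratios, sham 1 to 3 (0.783 to 0.908) lay above every CPB and nitrite library, and sham 4 (0.473) lay among them. Of the type VI ratios, CPB 1 to 3 (0.982 to 1.01) lay above the sham range and CPB 4 (0.771) below it.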
